A study of Homo sapiens with 18 samples.

Results

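The chromatin of 5 genes of the cellular response to iron and oxygen was examined in chromatin immunoprecipitation followed by sequencing (ChIP-seq) data from NB4 cells, an established human line derived from acute promyelocytic leukemia (APL). The genes were TFRC, NDRG1, BNIP3, VEGFA and EGLN3. They had been chosen by name, because maltol, the parent compound of maltonis, binds iron. Untreated (n.t.) cells were compared with cells exposed to 10 µM maltonis for 24 h. Each of 3 histone PTMs had 3 biological replicates per condition, which gave 18 libraries. All libraries came from one cell line, and each list averages over all cells of a culture. A smaller share of cells carrying a mark and less of the mark per cell cannot be told apart.

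Each gene was taken with 10 kb on either side. The peaks of the 18 lists that overlapped these 5 windows numbered 125 of 501863 in all lists. Overlapping peaks of the 6 libraries of a mark were merged into regions. A merged region was counted whole if any part of it lay in a window, so some of its peaks can lie outside. The windows held 6 of 27037 merged regions for H3K4me3, 12 of 36947 for H3K27ac and 7 of 46996 for H3K9me3. A region that came within 1000 bp of the gene start is described as lying over the start. Every position of a peak is in hg19, the build of the lists.

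Cells sense iron and oxygen through linked systems. Prolyl hydroxylases need both iron and oxygen to mark hypoxia-inducible factor (HIF) for degradation, and iron shortage or hypoxia therefore stabilises HIF, which switches on genes that hold the core of the hypoxia response element. TFRC encodes transferrin receptor 1, the main route of iron uptake in dividing blood cells, and its mRNA is stabilised by iron regulatory proteins when iron is scarce. EGLN3 encodes one of the prolyl hydroxylases and is itself a HIF target. NDRG1 is a stress protein induced by iron chelators and hypoxia. BNIP3 is a mitochondrial receptor for mitophagy, and VEGFA is the growth factor that drives vessel formation. Of the 3 marks, H3K4me3 lies at active promoters, H3K27ac at active promoters and enhancers, and H3K9me3 in repressed chromatin.

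The promoter sequences are shown because the marks described below lie at these start sites, or, for EGLN3, because no peak was called there. They are the 250 bases before the RefSeq gene start, 5′ to 3′ on the strand of the gene, in GRCh38.p14, and the peaks in hg19 were not carried over to them. RefSeq promoters were matched for 3 of the 5 genes. TFRC lies at chr3:196082091-196082340, BNIP3 at chr10:131981924-131982173 and EGLN3 at chr14:33951075-33951324, each on the minus strand. Capitals mark ACGTG or GCGTG on either strand, the core of the hypoxia response element, so that capitals reading CACGT or CACGC are matches on the opposite strand.
TFRC: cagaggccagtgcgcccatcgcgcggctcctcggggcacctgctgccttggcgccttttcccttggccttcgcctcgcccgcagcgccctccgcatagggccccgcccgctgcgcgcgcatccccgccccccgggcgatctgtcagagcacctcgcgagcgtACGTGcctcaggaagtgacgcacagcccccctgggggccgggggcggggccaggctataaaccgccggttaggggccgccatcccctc
BNIP3: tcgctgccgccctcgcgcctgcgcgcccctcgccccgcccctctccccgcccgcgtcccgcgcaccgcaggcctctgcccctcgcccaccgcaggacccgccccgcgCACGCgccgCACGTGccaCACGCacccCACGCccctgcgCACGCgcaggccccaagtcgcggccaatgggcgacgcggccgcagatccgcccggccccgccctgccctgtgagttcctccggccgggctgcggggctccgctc
EGLN3: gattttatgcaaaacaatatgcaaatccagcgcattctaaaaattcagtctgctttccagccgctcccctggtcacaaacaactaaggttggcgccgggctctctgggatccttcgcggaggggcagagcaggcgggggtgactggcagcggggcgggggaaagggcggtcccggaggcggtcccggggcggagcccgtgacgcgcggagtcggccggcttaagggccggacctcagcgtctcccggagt
The BNIP3 promoter held 6 matches, 2 of ACGTG and 4 of GCGTG. Both ACGTG matches are the same palindrome, CACGTG, read from either strand, so they overlap. Of 35116 RefSeq promoters of the same length, 0.646% held at least as many matches. The TFRC promoter held 1 ACGTG, and the EGLN3 promoter held none, which says only that these letters are not in this window. Over all promoters, 18.5% held ACGTG, 32.2% held GCGTG and 43.2% held either. The BNIP3 promoter was also the richest of the 3 in G and C, with 81.6% and 41 CG dinucleotides, against 74.4% and 29 for TFRC and 64.0% and 23 for EGLN3. The medians of all promoters were 58.0% and 11 CG dinucleotides.

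4 of the 5 genes had called peaks of both active marks over their start in every library, and the EGLN3 window had no called peak of any of the 3 marks in any library. The H3K4me3 lists held 15841 to 17755 peaks and no read counts. The H3K27ac lists held 32024 to 36288 peaks with 17974940 to 20773316 reads inside them, and the H3K9me3 lists held 29432 to 35171 peaks with 2595814 to 3366296 reads. H3K9me3 maltonis replicate 3 had the fewest reads in peaks of its group and mark. The map of called peaks shows the 4 marked genes side by side.

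**Figure D1:**
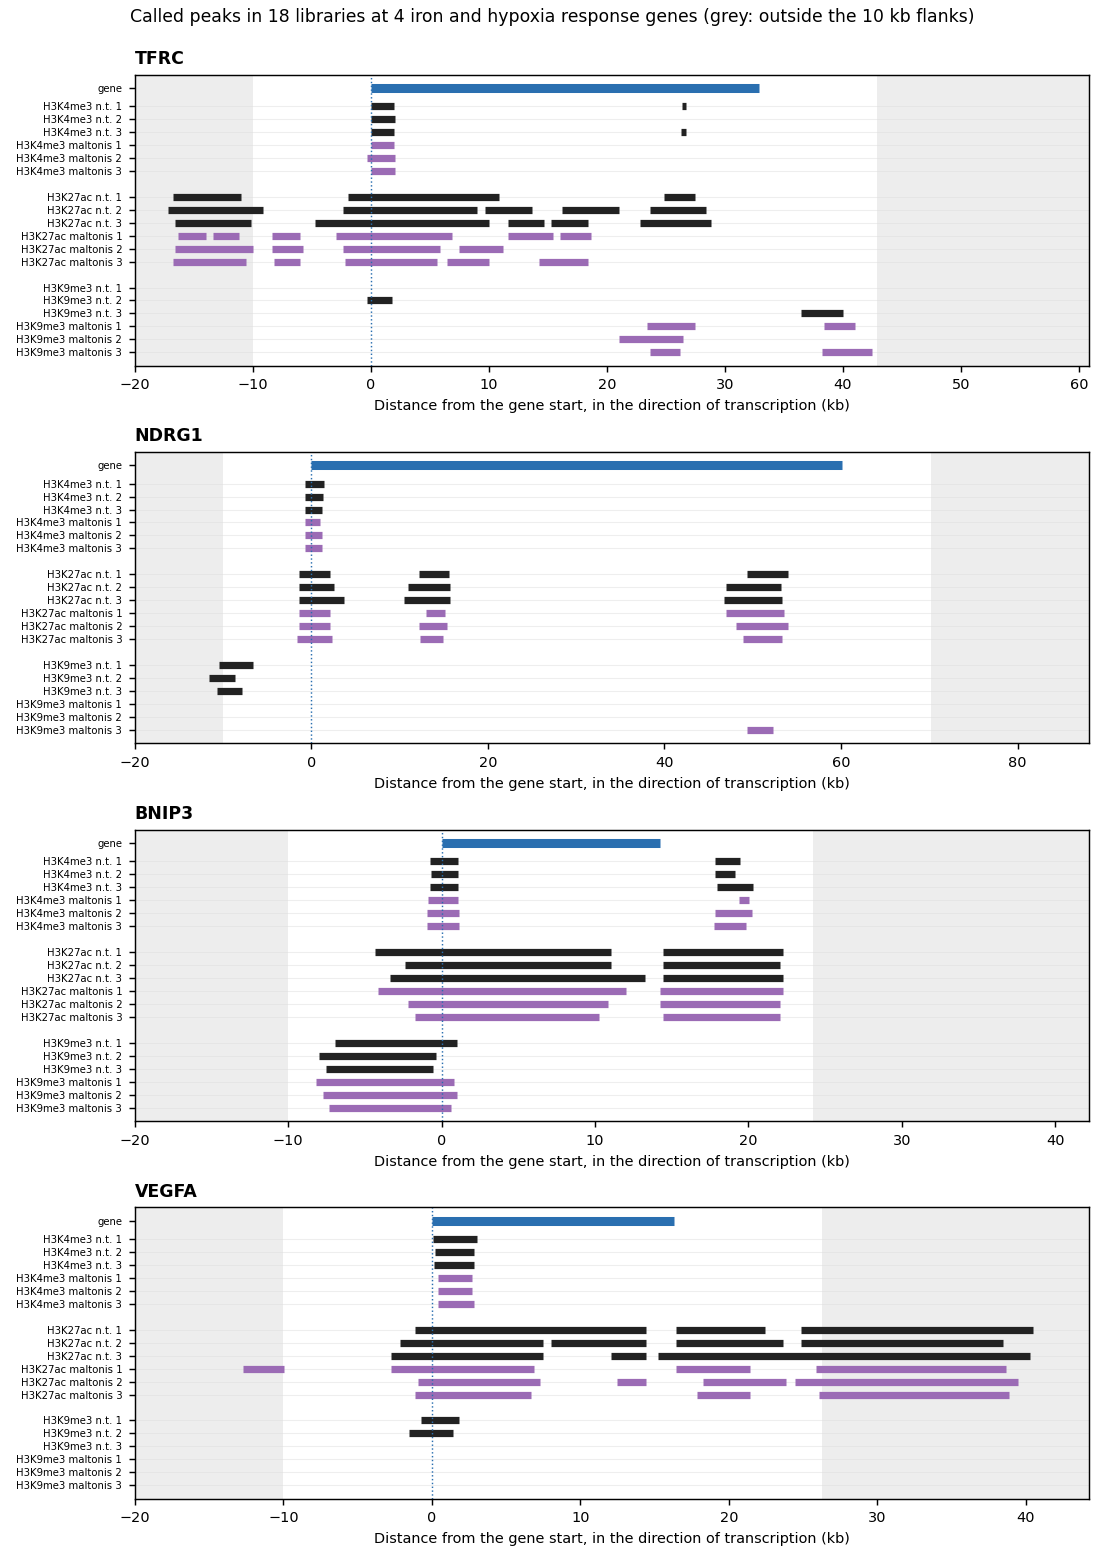
Peaks called in each of the 18 libraries (rows; black, untreated; lilac, 10 µM maltonis for 24 h) against the distance from the gene start in kb, with the gene in blue and the area outside the 10 kb flanks in grey. H3K4me3 sits at or just after all 4 starts in all 6 libraries, and within the TFRC gene the untreated libraries carry H3K27ac where the 3 maltonis libraries carry H3K9me3.

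Tests were made across all regions called in all 6 libraries of a mark. Reads in H3K27ac and H3K9me3 regions were compared with edgeR's quasi-likelihood test. The length called and, for H3K4me3, the fold enrichment over the caller's local background were compared with limma on a log2 scale. A change was called where the false discovery rate (FDR, Benjamini-Hochberg over all regions of the mark) did not exceed 0.01 and the log2 fold change reached 0.58 upwards or downwards, the limits used in the study. Of the regions in the windows, 5 of 6 for H3K4me3, 9 of 12 for H3K27ac and 1 of 7 for H3K9me3 could be tested in this way, beside 46.1%, 54.2% and 30.3% of all merged regions. For the rank of a peak in its list, the edges of peaks and the length covered in a window, no share of all regions was counted. How common such differences are was therefore not tested.

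For H3K27ac reads, 1 of the 9 regions of the windows called in all 6 libraries passed both limits, as lower after maltonis, and 0 as higher. Over all 20018 such regions, 19.2% were called lower and 8.18% higher. At the FDR limit alone, 4 of the 9 regions passed, 3 of them lower and 1 higher. The shares of all regions were 27.3% lower and 28.9% higher, so passing the FDR limit alone was common for this mark. The median log2 fold change of reads was -0.07 over the 9 regions and -0.01 over all regions. In depth-scaled reads (CPM, after TMM scaling), 4 of the 9 regions were lower in every maltonis library than in any untreated one and 2 were higher. Over all regions 35.6% were lower and 36.1% higher without overlap. The plot of H3K27ac reads shows each library.

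**Figure D2:**
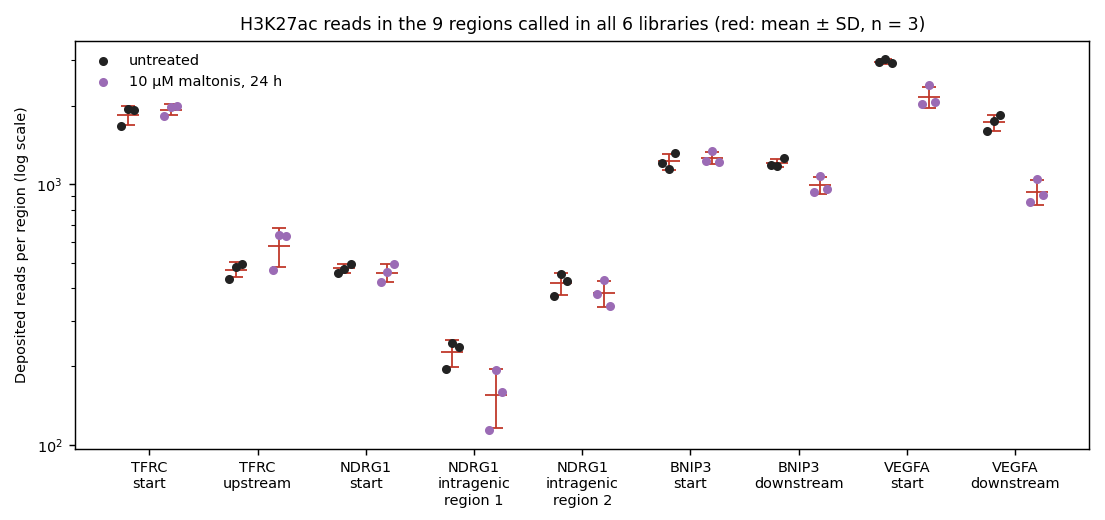
Deposited H3K27ac reads per region, not scaled for library depth, on a log axis for the 9 regions called in all 6 libraries (points, libraries; red, mean ± SD, n = 3). Both VEGFA regions, the region downstream of BNIP3 and NDRG1 intragenic region 1 are lower in every maltonis library than in any untreated one, as are 35.6% of all regions in depth-scaled reads, whereas the regions over the starts of TFRC, NDRG1 and BNIP3 overlap in deposited reads.

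For H3K4me3, 0 of the 5 regions called in all 6 libraries passed both limits in length, beside 3.84% of 12470 regions called longer and 0.289% called shorter. At an unadjusted p under 0.05, limma gave 2 of these 5 regions, the BNIP3 start and VEGFA, beside 6530 of all 12470 regions. In fold enrichment 0 of the 5 passed both limits, beside 0.449% called higher and 0.481% called lower. 1 of the 5 passed the FDR limit alone and the unadjusted limit of 0.05, the peak over the VEGFA start. Over all 12470 regions, 5246 were under that unadjusted limit in fold enrichment. The lengths of the H3K4me3 peaks moved as a whole, with a median log2 fold change of 0.19 over all regions. Changes in length are therefore read against that shift. The deposited fold enrichments had a median log2 fold change of -0.14 over all regions, and were centred on the median of each library for the test.

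TFRC, the iron uptake receptor, was the gene whose body was called for different marks in the 2 conditions. A stretch between 21.0 and 28.8 kb after the start was called for H3K27ac in 3 of 3 untreated and 0 of 3 maltonis libraries, and for H3K9me3 in 0 of 3 untreated and 3 of 3 maltonis libraries. H3K4me3 had a small peak there in 2 of 3 untreated and 0 of 3 maltonis libraries. The stretch shared by the regions of the 3 marks was 483 bp long, chr3:195782295-195782777, between 26.255 and 26.737 kb after the start.

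The H3K27ac region of the TFRC body, chr3:195780201-195786200, held 93, 167 and 171 deposited reads over 2600, 4800 and 6000 bp in the untreated libraries. Its peaks were of modest rank, at percentiles 22.5, 38.7 and 31.7 of the island scores of their lists. Over all merged H3K27ac regions, 6.04% were called in 3 untreated and 0 maltonis libraries. The H3K9me3 region, chr3:195781601-195788000, held 70, 74 and 45 reads over 4000, 5400 and 2600 bp in the maltonis libraries. These peaks stood at percentiles 51.3, 50.0 and 37.2 of their lists. Over all merged H3K9me3 regions, 0.781% were called in 0 untreated and 3 maltonis libraries. Both patterns were the same when all lists of a mark were limited to one common lowest island score. A list shows only what passed the caller, so a library with no peak can still hold reads there. The H3K4me3 peaks there were 397 and 468 bp long, with fold enrichments of 2.60 and 2.70 and a −log10 q of 1.50 and 1.59, close to the lowest value of the lists, 1.00.

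Over the TFRC start, the H3K4me3 peak at chr3:195806998-195809332 was 1988, 2007 and 1928 bp long in untreated and 1917, 2318 and 1989 bp long in maltonis libraries. Its fold enrichment was 5.04, 4.78 and 4.76 without and 4.40, 4.69 and 4.55 with maltonis. The groups overlapped in length, with a log2 fold change of 0.07 (SE 0.075, FDR = 0.500 by limma). The centred fold enrichment gave a log2 fold change of 0.06 (SE 0.040, FDR = 0.286 by limma), and without centring -0.10. The peak stayed among the strongest of its lists, at the 92.6 ± 2.57 percentile of −log10 q without and 93.4 ± 1.12 with maltonis (± SD, n = 3 per condition).

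The H3K27ac region over the TFRC start, chr3:195788001-195813800, held 1673, 1940 and 1923 reads in untreated and 1826, 1984 and 2004 in maltonis libraries. The groups overlapped in deposited reads. Scaled for depth they were 89.8, 99.3 and 99.1 against 105, 99.4 and 108 CPM, higher in every maltonis library by a narrow margin, and the log2 fold change was 0.12 (SE 0.049, FDR = 0.0566 by edgeR). Further upstream, chr3:195818201-195826200 held 435, 482 and 495 reads without and 468, 640 and 634 with maltonis. The groups overlapped in deposited reads and were higher after maltonis without overlap when scaled for depth. That region passed the FDR limit but not the fold limit, with a log2 fold change of 0.34 (SE 0.094, FDR = 0.00894 by edgeR). Leaving out 1 library at a time raised the FDR above 0.01 for 5 of the 6 libraries, up to 0.0417, and the exception was maltonis replicate 1. With the called length as an offset the FDR was 0.0706. This upstream region reached past the 10 kb flank and was counted whole. Only the peaks of untreated replicate 2 and maltonis replicate 2 came within the flank. Between these regions, chr3:195814801-195817400 was called in 0 of 3 untreated and 3 of 3 maltonis libraries, with 66, 86 and 75 reads, beside 1.65% of all merged H3K27ac regions. These peaks ranked low, at percentiles 5.36 to 18.3, and at one common lowest island score they were left in 1 maltonis library. H3K9me3 was called over the TFRC start in 1 untreated library and after the gene end in 1 untreated and 2 maltonis libraries, all with at most 57 reads.

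In sum over the TFRC window, H3K9me3 covered 0, 2.20 and 3.60 kb in untreated and 6.60, 5.40 and 6.80 kb in maltonis libraries. Every maltonis library covered more than any untreated one (exact permutation test, two-sided, p = 0.1, the smallest that 3 against 3 libraries allow). Without maltonis replicate 3, which had the fewest reads, maltonis libraries covered 4.07 kb more on average than untreated ones. With flanks of 50 kb the difference was -0.40 kb (exact permutation test, p = 1.0). H3K27ac covered 22.7 ± 6.39 kb without and 17.0 ± 2.10 kb with maltonis (± SD, n = 3 per condition), and the groups overlapped (exact permutation test, p = 0.3). Whole H3K9me3 lists covered 162.8, 169.0 and 171.5 Mb in untreated and 170.5, 166.5 and 141.5 Mb in maltonis libraries, with overlap.

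EGLN3, the prolyl hydroxylase, had no peak of H3K4me3, H3K27ac or H3K9me3 in any of the 18 lists within its window, chr14:34383420-34430284. The nearest H3K27ac peak lay 61.1 to 61.9 kb from the gene in all 6 libraries, at higher coordinates, which is upstream of this minus-strand gene. The nearest H3K4me3 peak was 109 kb away in 2 untreated libraries and about 510 kb away in the other untreated library and in the 3 maltonis libraries. The nearest H3K9me3 peak was 33.3 to 448 kb away. No comparison between conditions could be made for this gene. A list without a peak does not show that the mark was absent.

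NDRG1, the stress protein induced by iron chelators, had both active marks called over the start in all 6 libraries. The H3K4me3 peak at chr8:134308133-134310298 was 2114, 2010 and 1924 bp long in untreated and 1663, 1926 and 1883 bp long in maltonis libraries. The groups overlapped by the smallest untreated and the largest maltonis value, with a log2 fold change of -0.15 (SE 0.069, FDR = 0.137 by limma). Its fold enrichment was 4.27, 3.81 and 4.22 without and 3.88, 3.56 and 3.84 with maltonis, a log2 fold change of 0.03 after centring (SE 0.069, FDR = 0.758 by limma) and -0.12 without it. Within its lists this was a middling peak, and its −log10 q percentile was lower in each maltonis library, 38.0 ± 3.18 against 45.3 ± 2.60 (± SD, n = 3 per condition) (exact permutation test, p = 0.1). Among peaks with a −log10 q of at least 10, it was left in 2 of 3 untreated and 0 of 3 maltonis libraries. The share of all regions that behaved alike in percentile or at that limit was not counted.

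The H3K27ac region over the NDRG1 start, chr8:134305801-134311200, held 458, 475 and 496 reads in untreated and 422, 461 and 493 in maltonis libraries. The groups overlapped, with a log2 fold change of -0.01 (SE 0.079, FDR = 0.928 by edgeR). Inside the gene, chr8:134293801-134299000, about 10.5 to 15.7 kb after the start, held 196, 246 and 237 reads without and 114, 194 and 160 with maltonis. Every maltonis library was lower, as in 35.6% of all regions when scaled for depth, and the difference missed the FDR limit, with a log2 fold change of -0.50 (SE 0.174, FDR = 0.0280 by edgeR). The peak was also shorter there, 3400, 4800 and 5200 bp against 2200, 3200 and 2600 bp, as were 28.2% of all regions without overlap, and with the called length as an offset the log2 fold change was 0.06. The other intragenic region, chr8:134255601-134262800, had a log2 fold change of -0.07 (SE 0.099, FDR = 0.526 by edgeR).

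Upstream of NDRG1, H3K9me3 was called at chr8:134316201-134321200 in 3 of 3 untreated and 0 of 3 maltonis libraries. These peaks held 46, 47 and 42 reads and ranked at percentiles 25.5, 39.5 and 13.8. Over all merged H3K9me3 regions, 2.32% were called in 3 untreated and 0 maltonis libraries. At one common lowest island score the peak was left in 2 untreated libraries. The region reached past the 10 kb flank. 1 maltonis library had an H3K9me3 peak of 35 reads within the gene.

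BNIP3, the mitophagy receptor, was the member that carried H3K9me3 in all 6 libraries, next to strong active marks. The H3K4me3 peak over its start, chr10:133794299-133796420, was 1873, 1763 and 1841 bp long in untreated and 1955, 2069 and 2088 bp long in maltonis libraries. Every maltonis peak was longer, as were 54.8% of all H3K4me3 regions. The log2 fold change of 0.16 (SE 0.042, FDR = 0.0291 by limma) lay close to the median of all regions and did not pass the limits. The added length was mainly on the upstream side, where the peak reached 740 ± 55.6 bp before the start in untreated cells and 925 ± 63.3 bp after maltonis (± SD, n = 3 per condition) (exact permutation test, p = 0.1). Its fold enrichment, 5.07, 5.40 and 4.87 against 4.72, 4.99 and 4.57, gave a log2 fold change of 0.05 after centring (SE 0.047, FDR = 0.418 by limma) and -0.10 without it.

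H3K27ac over the BNIP3 start, chr10:133782201-133799800, covered most of the gene and held 1206, 1150 and 1320 reads in untreated and 1232, 1344 and 1215 in maltonis libraries. The groups overlapped, also when scaled for depth, with a log2 fold change of 0.09 (SE 0.057, FDR = 0.195 by edgeR). The region after the gene end, chr10:133773201-133781200, differed. It held 1189, 1180 and 1261 reads without and 937, 1076 and 963 with maltonis, lower in every maltonis library like 35.6% of all regions when scaled for depth, and passed the FDR limit with a log2 fold change of -0.24 (SE 0.045, FDR = 0.000944 by edgeR), under the fold limit. Its length was nearly the same in both conditions, 7733 ± 115 and 7800 ± 200 bp (± SD, n = 3 per condition), whereas its island score stood at percentile 89.3 ± 1.97 without and 76.8 ± 1.45 with maltonis (exact permutation test, p = 0.1). Once the called length entered as an offset, the log2 fold change was -0.41 and missed the FDR limit (edgeR FDR = 0.0173). That fit also rescaled the libraries on reads per called length. The value is therefore not a correction for the length of this region alone.

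A weak H3K4me3 peak lay inside the same stretch, at chr10:133775123-133777660, in all 6 libraries. Its fold enrichment was 2.73, 2.88 and 2.66 without and 2.41, 2.66 and 2.54 with maltonis. Its −log10 q stood at the 27.8 ± 1.68 percentile of the untreated and at the 13.1 ± 2.55 percentile of the maltonis lists (exact permutation test, p = 0.1). The centred fold enrichment gave a log2 fold change of 0.03 (SE 0.049, FDR = 0.634 by limma) and -0.12 without centring.

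The H3K9me3 region of BNIP3, chr10:133794401-133803600, covered the upstream side from about 8 kb before the start. In 4 of the 6 libraries, untreated replicate 1 and all 3 maltonis libraries, it crossed the start by 634 to 1034 bp, and in untreated replicates 2 and 3 it ended 366 and 566 bp before it. It held 153, 179 and 151 reads in untreated and 177, 209 and 169 in maltonis libraries. The groups overlapped in deposited reads. Scaled for depth they were 63.2, 71.2 and 59.0 against 71.5, 87.1 and 82.6 CPM, higher in every maltonis library, as were 10.4% of all regions, while 9.23% were lower without overlap. The log2 fold change of 0.32 missed the limits (SE 0.160, FDR = 0.410 by edgeR). Over all 14226 H3K9me3 regions called in all 6 libraries, 0.253% were called higher and 0.0141% lower. At an unadjusted p under 0.05, edgeR gave 0 regions of the windows, beside 2001 of all 14226. DESeq2 did not call the BNIP3 region either (FDR = 0.533). Without maltonis replicate 3 the log2 fold change was 0.29. The region ranked high in its lists, at the 90.0 ± 2.21 percentile of island scores without and 93.4 ± 1.62 with maltonis (± SD, n = 3 per condition). It was 7533 ± 503 bp long without and 8600 ± 529 bp with maltonis, with a log2 fold change of 0.19 (SE 0.203, FDR = 0.893 by limma), and 0% of all regions passed the limits in length.

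VEGFA, the vascular growth factor, held the only change called among the regions present in all 6 libraries, lower H3K27ac after the gene end. The region chr6:43753201-43778400 began near the gene end and reached about 40 kb past the gene start. It went past the 10 kb flank and was counted whole. It held 1597, 1750 and 1843 reads in untreated and 855, 1048 and 907 in maltonis libraries. The highest maltonis library was well below the lowest untreated one. Without overlap, 35.6% of all regions were lower in depth-scaled reads. The reads fell by 0.84 on the log2 scale (SE 0.050, FDR = 7.02e-07 by edgeR). The call held with DESeq2, with each library left out, and with the called length as an offset, where the log2 fold change was -0.70 (SE 0.105, FDR = 0.00239 by edgeR). In that fit 4.54% of all regions were called lower and 2.17% higher. It also rescaled the libraries by TMM on reads per called length. The called length of all regions had a median log2 fold change of -0.20. The offset value is therefore not a correction for the length of this region alone. Whether the call would hold without the rescaling was not tested. The island score stood at percentile 77.2 ± 1.38 of the untreated and 65.2 ± 1.51 of the maltonis lists (exact permutation test, p = 0.1). Untreated replicate 3 had 1 peak across the region, and the other libraries had 2. The peak nearer the gene held 381 and 438 reads in untreated replicates 1 and 2, and 256, 302 and 239 with maltonis. The farther peak, most of it past the flank, held 1216 and 1312 against 599, 746 and 668. The 2 parts were not tested apart.

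H3K27ac over the VEGFA start, chr6:43735201-43752400, held 2949, 3022 and 2918 reads in untreated and 2036, 2405 and 2080 in maltonis libraries. It passed the FDR limit with a log2 fold change of -0.40 (SE 0.034, FDR = 6.17e-06 by edgeR), under the fold limit. The region was also shorter in each maltonis library, 15600, 16000 and 12600 bp against 9600, 10200 and 7800 bp, with a log2 fold change of length of -0.68 (SE 0.152, FDR = 0.0279 by limma). Lengths without overlap and shorter after maltonis were found in 28.2% of all H3K27ac regions, and longer ones in 3.84%. With the called length as an offset, the log2 fold change of reads was 0.11 (SE 0.099, FDR = 0.443 by edgeR), of the opposite sign and short of both limits. The 2 VEGFA regions therefore differed in this respect, as reads per kb after the gene were 73.9, 84.1 and 73.7 without and 48.0, 50.9 and 55.3 with maltonis, lower without overlap like 12.5% of all regions, while 25.5% were higher. A test of the difference between both regions was not made.

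The H3K4me3 peak over the VEGFA start had lower lengths and higher fold enrichments in the maltonis lists, and passed both limits in neither. At chr6:43738046-43741000 it measured 2955, 2631 and 2710 bp in untreated and 2272, 2313 and 2415 bp in maltonis libraries. Every maltonis peak was shorter, as were 3.99% of all regions, while the median region was longer. The log2 fold change of length was -0.24 (SE 0.051, FDR = 0.0143 by limma), just above the FDR limit of 0.01. The peak lay wholly after the start, and its near edge was 100, 220 and 160 bp after the start without and 425, 396 and 414 bp with maltonis (exact permutation test, p = 0.1).

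Its fold enrichment was 3.29, 3.54 and 3.30 in untreated and 3.87, 3.86 and 3.74 in maltonis libraries, higher in every maltonis library also before centring, as were 25.2% of all regions after centring, while 21.5% were lower without overlap. The centred value gave a log2 fold change of 0.34 (SE 0.047, FDR = 0.00321 by limma). It passed the FDR limit, as did 4.50% of all regions upwards and 5.81% downwards, but not the fold limit. Without centring the log2 fold change was 0.18 (limma FDR = 0.0217), and leaving out 1 library at a time gave an FDR of up to 0.0142, above 0.01 for each library but untreated replicate 2. The −log10 q stood at percentile 76.6 ± 2.51 of the untreated and 92.8 ± 1.33 of the maltonis lists (± SD, n = 3 per condition) (exact permutation test, p = 0.1). The plot of the start-site peaks sets VEGFA beside the other genes.

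**Figure D3:**
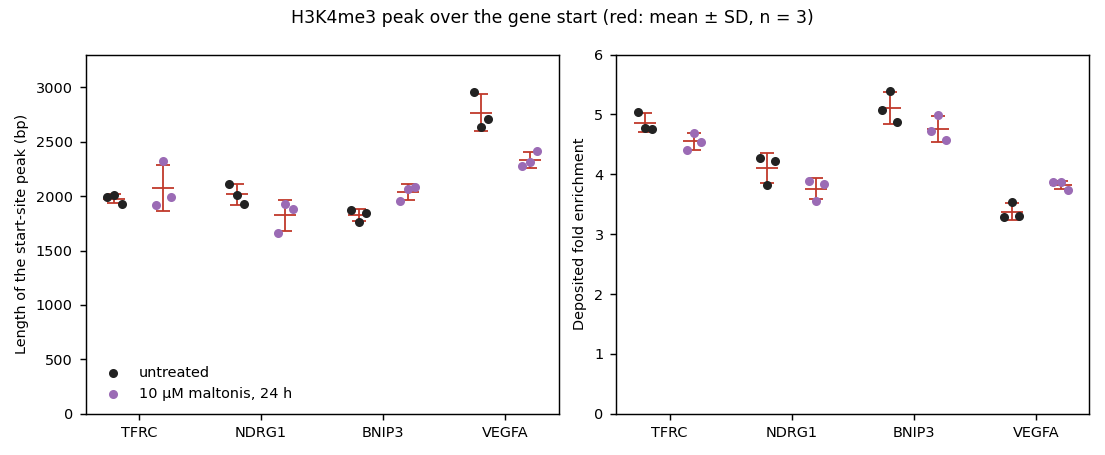
Length in bp (left) and deposited fold enrichment (right) of the H3K4me3 peak over each gene start (points, libraries; red, mean ± SD, n = 3). VEGFA alone of the 4 genes has shorter peaks with higher fold enrichment in all 3 maltonis libraries, at 2272 to 2415 bp and 3.74 to 3.87.

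H3K9me3 was called over the VEGFA start in 2 of 3 untreated libraries, with 51 and 43 reads, and in 0 of 3 maltonis libraries. A small H3K27ac peak upstream of VEGFA was called in maltonis replicate 1, with 78 reads. In sum over the VEGFA window, H3K27ac covered 23.8 ± 0.808 kb without and 14.8 ± 3.01 kb with maltonis (± SD, n = 3 per condition), less in every maltonis library (exact permutation test, p = 0.1). Whole H3K27ac lists also covered less in every maltonis library, 217.8, 229.8 and 226.7 Mb without and 185.0, 182.9 and 171.9 Mb with maltonis. The covered lengths of all windows are plotted by library.

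**Figure D4:**
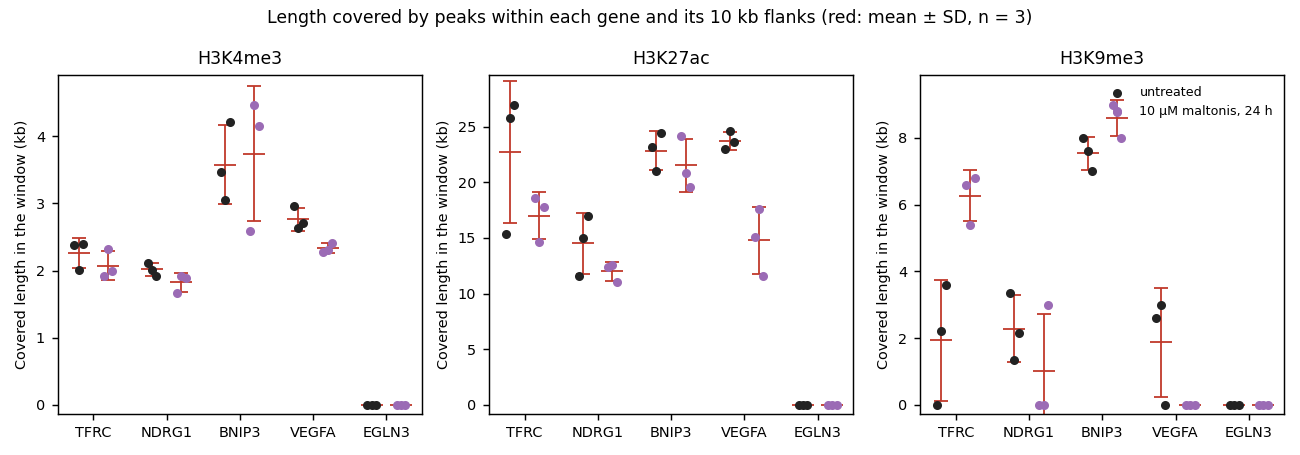
Length in kb covered by peaks within each gene and its 10 kb flanks, for H3K4me3, H3K27ac and H3K9me3 (points, libraries; red, mean ± SD, n = 3). The conditions do not overlap for VEGFA in H3K4me3 and H3K27ac, where maltonis is lower, and for TFRC in H3K9me3, where maltonis is higher, and EGLN3 is at 0 throughout. Over whole lists, maltonis libraries also cover less in H3K27ac, at 171.9 to 185.0 Mb against 217.8 to 229.8 Mb. They cover more in H3K4me3, at 25.90 to 25.94 Mb against 24.02 to 24.46 Mb, and overlap with untreated ones in H3K9me3.

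Against all regions of each mark, H3K4me3 lengths lay toward the low end for 3 of the 5 regions. The share of all 12470 regions with a lower log2 fold change of length was 6.20% for VEGFA, 7.02% for the region downstream of BNIP3 and 8.95% for NDRG1. At NDRG1 and downstream of BNIP3 the lengths of the 2 conditions overlapped. Downstream of BNIP3 they were 1598, 1288 and 2369 bp without and 636, 2405 and 2065 bp with maltonis. Leaving out 1 library there gave log2 fold changes from -0.57 to 0.39. It was higher for the other two, 44.7% at the BNIP3 start. For H3K27ac reads the same share ran from 13.7% for the region downstream of VEGFA to 77.9% for the region upstream of TFRC. For H3K27ac length, 0 of 9 regions passed both limits, beside 3.37% of all regions called shorter and 0.140% called longer. Unadjusted p-values from limma were under 0.05 for 3 of the 9, NDRG1 intragenic region 1 and both VEGFA regions. The same held for 5949 of all 20018 regions. The median log2 fold change of H3K27ac length was -0.22 over the 9 regions and -0.20 over all regions. The median log2 fold change of H3K4me3 length was -0.15 over the 5 regions, against 0.19 over all regions.

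**Figure D5:**
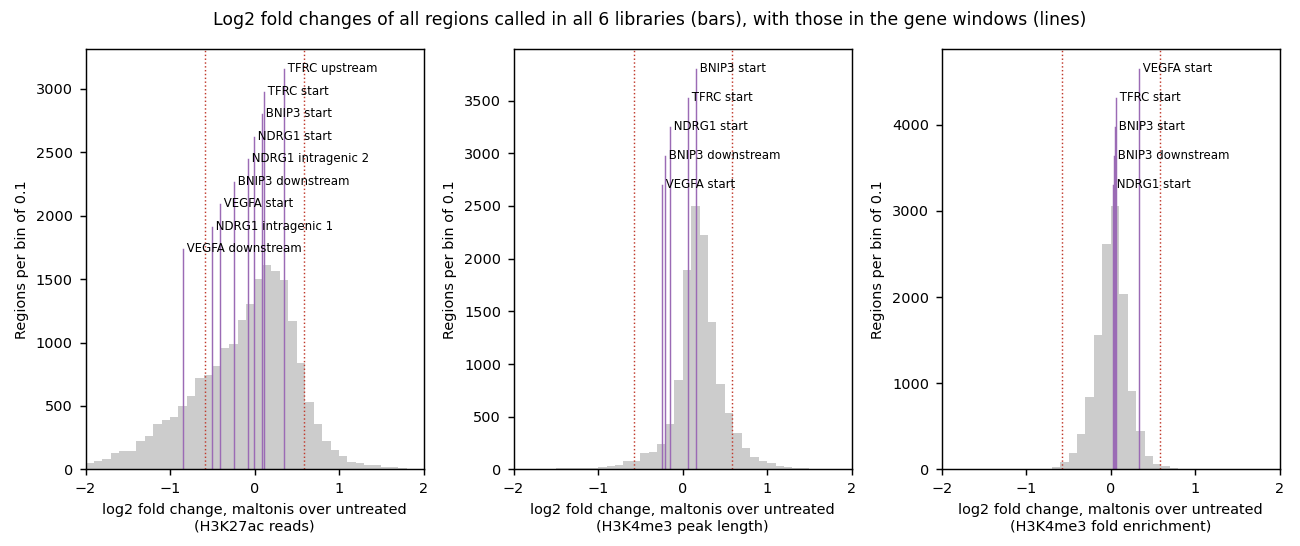
Number of regions per 0.1 of log2 fold change (maltonis over untreated) among all regions called in all 6 libraries, for H3K27ac reads, H3K4me3 peak length and centred H3K4me3 fold enrichment; lilac lines mark the regions of the 4 genes and dotted red lines the limits of 0.58. The region downstream of VEGFA, at -0.84, is the only line beyond a limit.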

How the data were processed

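ChIP-seq was analysed from 18 peak lists of NB4 cells, 3 per mark and condition, grouped by their titles. The authors aligned reads to hg19 and called peaks per library, with replicates not pooled. H3K4me3 lists (MACS2, broad mode) hold a deposited score, fold enrichment and −log10 p and q values. H3K27ac and H3K9me3 lists hold the deposited read count and island score of each region. The methods name epic2 and the submitters' processing notes name SICER, along with BWA and SAMtools. Counts are not scaled for depth and move with the length called, and each caller reports only what passed its own threshold. Totals of reads per library were not used here.

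Within a mark, peaks that shared 1 bp or more across the 6 libraries were joined. Reads summed per merged region were tested with edgeR 4.0.16 (TMM, quasi-likelihood), and log2 called length and log2 length-weighted fold enrichment with limma 3.58.1. DESeq2 1.42.0 was an alternative. Where the called length was an offset, the library scale was re-estimated by TMM on reads per called length. The main fits used the regions called in all 6 libraries and were tested on simulated data, whereas some alternatives used other sets of regions. Percentiles rank a peak by −log10 q or island score in its own list. Single values of a library were tested by exact two-sided permutation over the 20 assignments of libraries, whose smallest p is 0.1. All regions in the windows of the 5 named genes were counted, and those over a start, in all 6 libraries or in 3 libraries of 1 condition were described. The genes and settings were chosen with earlier results of these data known. No hg19 annotation was used here, so other iron and hypoxia genes and promyelocyte markers were not analysed here. Promoter sequences came from RefSeq (GRCh38.p14).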

Additional observations from a re-analysis of the deposited data

How the results depend on the processing

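The lists hold peaks rather than reads outside them, so depth limits what a missing peak means, and weak H3K9me3 regions rest on as few as 33 reads. With 3 libraries per group, exact tests cannot go below 0.1. The lower H3K27ac reads downstream of VEGFA stayed called in the alternatives that kept this region apart. Of the alternatives to the log2 fold changes, 295 kept direction and side of the limits, 21 reversed and 3 passed the limits. All 3 came from 1 joined VEGFA H3K27ac region, with peaks within 1000 bp merged. For the covered lengths, 123 kept direction and overlap, 11 reversed, 15 no longer overlapped between groups and 1 moved from 0. Part of this was fixed in advance. The 123 include EGLN3 windows at 0 in both conditions. Leaving out 1 library cannot make separate groups overlap, and it lets overlapping groups separate more easily. These counts therefore do not measure how robust the differences are. The cause was not tested for the values below.

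Without centring, the log2 fold change of H3K4me3 fold enrichment was -0.10 at TFRC, -0.12 at NDRG1, -0.10 at the BNIP3 start and -0.12 downstream of BNIP3, against positive values with centring. With regions called in at least 1 library, H3K27ac reads at the NDRG1 start gave 0.0012. The called length as an offset gave 0.060 at NDRG1 intragenic region 1 and 0.11 at the VEGFA start, against -0.50 and -0.40 in the main fit. Merging peaks within 1000 bp joined both VEGFA H3K27ac regions into 1, which was called in reads (-0.63) and in length (-0.72), and gave 0.29 for the length upstream of TFRC.

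Leaving out 1 library at a time turned the sign of small log2 fold changes. The ranges were -0.016 to 0.12 for H3K4me3 length at TFRC, -0.57 to 0.39 for H3K4me3 length downstream of BNIP3 and -0.027 to 0.087 for H3K4me3 fold enrichment at NDRG1. They were -0.069 to 0.039 for H3K27ac reads at the NDRG1 start, -0.21 to 0.11 for H3K27ac length at NDRG1 intragenic region 2 and -0.0062 to 0.031 for H3K27ac length downstream of BNIP3.

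Covered length is given in kb, maltonis minus untreated. For H3K4me3, the strongest 75% of peaks and a −log10 q of at least 10 each gave 0.100 at TFRC, and -1.54 and 0.212 at BNIP3. A −log10 q of at least 10 gave -1.35 at NDRG1, against -0.192. Without flanks BNIP3 gave 0.027. Flanks of 50 kb gave 0.559 at VEGFA in H3K4me3, -22.9 at VEGFA (against -8.98), -5.13 at NDRG1 and 4.60 at BNIP3 in H3K27ac, and -0.40 at TFRC, -5.13 at NDRG1, -2.07 at BNIP3 and -0.60 at EGLN3 in H3K9me3, where NDRG1 without flanks gave 1.00. Leaving out 1 library gave -0.316 to -0.109 at TFRC, -0.243 to -0.111 at NDRG1 and -0.205 to 0.736 at BNIP3 for H3K4me3. For H3K27ac it gave -9.41 to -3.61 at TFRC, -4.00 to -1.30 at NDRG1 and -2.67 to -0.367 at BNIP3. For H3K9me3 it gave -2.28 to -0.747 at NDRG1, 0.800 to 1.37 at BNIP3 and -2.80 to -1.30 at VEGFA. At one common lowest island score, chosen after seeing the data, the difference in libraries was 1 for the H3K27ac region between TFRC and its upstream region and -2 for H3K9me3 upstream of NDRG1.

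No pairing by replicate number was visible in the values, where deviations of same-numbered libraries correlated between -0.0205 and 0.0297. The titles number the replicates but do not say whether same-numbered cultures were handled together. With the number as a replicate block, no region of the 5 genes gained or lost a call. VEGFA gave -0.84 for H3K27ac reads downstream and 0.34 for H3K4me3 fold enrichment (limma FDR = 0.0145). Over all regions, the block changed the calls in H3K4me3 length from 479 higher and 36 lower to 17 and 5, in H3K27ac length from 28 and 674 to 0 and 0, and in H3K9me3 reads from 36 and 2 to 11 and 0, for which DESeq2 gave 132 and 39. The length offset changed the H3K27ac calls from 1637 and 3840 to 434 and 908. Without centring, 12 H3K4me3 regions were called higher and 269 lower in fold enrichment, against 56 and 60.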
